A study of Homo sapiens with 3 samples.

Results

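Mitotic and non-mitotic transcriptomes were compared inside each of 3 single-cell libraries of H9, an established human embryonic stem cell line. Mitotic cells were the 20% of a library with the highest score of 7 mitosis genes, and non-mitotic cells the 40% with the lowest. Cells entered with 3000 to 20000 unique molecular identifiers (UMIs, each standing for 1 captured RNA molecule) and 5 to 25% of them from mitochondrially encoded genes. The score is the summed UMIs of TOP2A, CENPF, MKI67, CCNB1, UBE2C, HMMR and PLK1 per 10000 UMIs of the cell. These limits were set on the readout itself. There were 233 mitotic and 466 non-mitotic cells in the library labelled day 0, 104 and 209 in the one labelled day 2, and 251 and 502 in the one labelled day 6. Together these 588 mitotic and 1177 non-mitotic cells came from 2943 eligible cells, among 39687 barcodes in the files. Their summed UMIs were 2412751, 918463 and 2432727 in mitotic and 4606908, 1769619 and 4699479 in non-mitotic cells.

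All 3 libraries carry the same growth and treatment notes: mTeSR, a stem cell medium, and a commercial SMAD inhibitor kit (STEMdiff SMADi) for turning stem cells into neural progenitors. Cells were profiled by the inDrop droplet method with the TruDrop protocol. The cell type label is human embryonic stem cell for day 0 and differentiated cell or neural progenitor cell for day 2 and day 6. The titles add the letters A, B and A, whose meaning is not given here, and nothing says whether the libraries share a culture. Each library is 1 sample, cells of 1 sample are not replicates, and the cells were chosen by their own transcripts. No test was therefore run, and every interval covers counting error only.

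Marker genes did not follow the order of the labels. POU5F1, a core pluripotency factor, had 1.70, 1073 and 230 CPM (counts per 1000000 summed UMIs) over the eligible cells of the libraries with the labels day 0, day 2 and day 6. PAX6, an early neural transcription factor, had 196, 14.8 and 40.8 CPM in the same order. The libraries are therefore called by their labels, no order in time is read from them, and each contrast below stays within 1 library. Eligible cells of 2 libraries shared 7 barcodes between the labels day 0 and day 2, 17 between day 0 and day 6, and 4 between day 2 and day 6. Some eligible cells clustered with another library than their own: 0, 25 and 71 cells, of which 0, 7 and 18 were mitotic and 0, 15 and 30 non-mitotic. Of the 66 shared genes described below, 61 stayed shared without those cells and 66 without the shared barcodes.

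Cells prepare for division in a fixed order. Replication origins are licensed by the MCM helicase in G1, DNA is copied in S phase, and in G2 and mitosis cyclin B with the kinase CDK1 drives chromosome condensation and spindle assembly. The spindle checkpoint then holds back the anaphase promoting complex until every chromosome is attached, after which the cell splits by cytokinesis. Genes of these last steps are transcribed as a block in late S phase, G2 and mitosis, so a high score marks G2 cells as well as cells in mitosis itself. Their promoters are known for a short element called the cell cycle genes homology region (CHR), bound by MuvB complexes, often with CCAAT boxes, bound by NF-Y, upstream of it.

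These letters were looked for in the RefSeq promoters (GRCh38.p14, 250 bases before to 50 bases after the start) of the 66 genes that were at least 2-fold higher in mitotic cells of all 3 libraries. The CHR was searched as TTTGAA or TTTAAA and the CCAAT box as CCAAT, both on both strands, with overlaps allowed. Of these 66 genes 52 had a promoter in the table. A CHR stood in 75% of them (39 promoters), against 24.3% of all 27305 promoters in the table and 16.1% of the 4711 promoters found for all genes tested. CCAAT stood in 73.1%, against 35.7% and 38.6%, and both motifs in 61.5%, against 9.49% and 7.30%. All 6 score genes with a promoter in the table held both. The following stretches of 120 bases end at the base before the start and show how the motifs lie in 7 genes of different roles, with KNSTRN as a gene whose 300 bases held neither; capitals mark both motifs.
PLK1: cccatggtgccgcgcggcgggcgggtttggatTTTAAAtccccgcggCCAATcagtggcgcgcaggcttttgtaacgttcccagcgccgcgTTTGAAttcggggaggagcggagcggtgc
CCNB1: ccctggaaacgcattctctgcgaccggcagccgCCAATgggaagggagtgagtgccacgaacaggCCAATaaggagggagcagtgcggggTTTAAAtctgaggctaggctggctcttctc
CDC20: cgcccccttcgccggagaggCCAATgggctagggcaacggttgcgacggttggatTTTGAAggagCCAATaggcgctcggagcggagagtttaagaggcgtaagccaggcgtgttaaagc
KPNA2: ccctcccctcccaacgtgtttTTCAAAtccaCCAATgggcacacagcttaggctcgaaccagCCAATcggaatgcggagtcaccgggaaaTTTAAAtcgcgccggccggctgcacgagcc
KIF11: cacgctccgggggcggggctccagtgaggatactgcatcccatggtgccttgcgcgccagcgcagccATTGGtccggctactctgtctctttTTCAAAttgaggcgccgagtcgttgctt
KIF20A: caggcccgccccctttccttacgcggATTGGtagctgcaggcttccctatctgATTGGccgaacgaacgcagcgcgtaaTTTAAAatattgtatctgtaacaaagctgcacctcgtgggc
PRC1: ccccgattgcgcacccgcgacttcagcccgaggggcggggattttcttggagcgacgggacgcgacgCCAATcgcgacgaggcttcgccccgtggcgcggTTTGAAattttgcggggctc
KNSTRN: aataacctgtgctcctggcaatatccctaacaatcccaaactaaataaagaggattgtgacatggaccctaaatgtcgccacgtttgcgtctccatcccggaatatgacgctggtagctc
They lie at chr16:23678769-23678888 (plus strand), chr5:69167030-69167149 (plus strand), chr1:43358861-43358980 (plus strand), chr17:68035615-68035734 (plus strand), chr10:92593010-92593129 (plus strand), chr5:138178992-138179111 (plus strand), chr15:90994536-90994655 (minus strand) and chr15:40382601-40382720 (plus strand). In CCNB1, which encodes cyclin B1, the CHR begins 30 bases before the start, and CCAAT boxes begin 87 and 55 bases before it. PRC1, KIF11 and KIF20A have a CHR 20, 28 and 41 bases before the start, each with CCAAT farther upstream. CDK1 has its motifs outside the stretch of 120 bases, with CHR letters 161 and 131 bases before the start and CCAAT 150 bases before it. A match is a description of letters, not a bound site.

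Scores of mitotic and non-mitotic cells were set apart by the rule and did not overlap. The median score was 29.9, 20.6 and 17.3 in mitotic cells of the libraries labelled day 0, day 2 and day 6, against 1.97, 3.02 and 1.57 in non-mitotic cells. The lowest mitotic scores were 18.7, 14.9 and 12.1, so a cell that was mitotic by rank in the library labelled day 6 could fall in the middle group of that labelled day 0. Just below them stood scores of 18.7, 14.6 and 12.1. The highest non-mitotic scores were 4.70, 5.67 and 3.52, and the next scores above them 4.70, 5.70 and 3.52. No score gene was seen in 110, 40 and 146 of the non-mitotic cells. Mitotic cells held slightly more UMIs, with medians of 9509, 7438.5 and 8819 against 8796.5, 6778 and 7833.5 in non-mitotic cells, and more genes, with 3370, 2801 and 3311 against 3137.5, 2628 and 3052.5. With the score limits set within 4 equal bins of cells by UMIs, 65 of the 66 shared genes stayed shared.

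**Figure D1:**
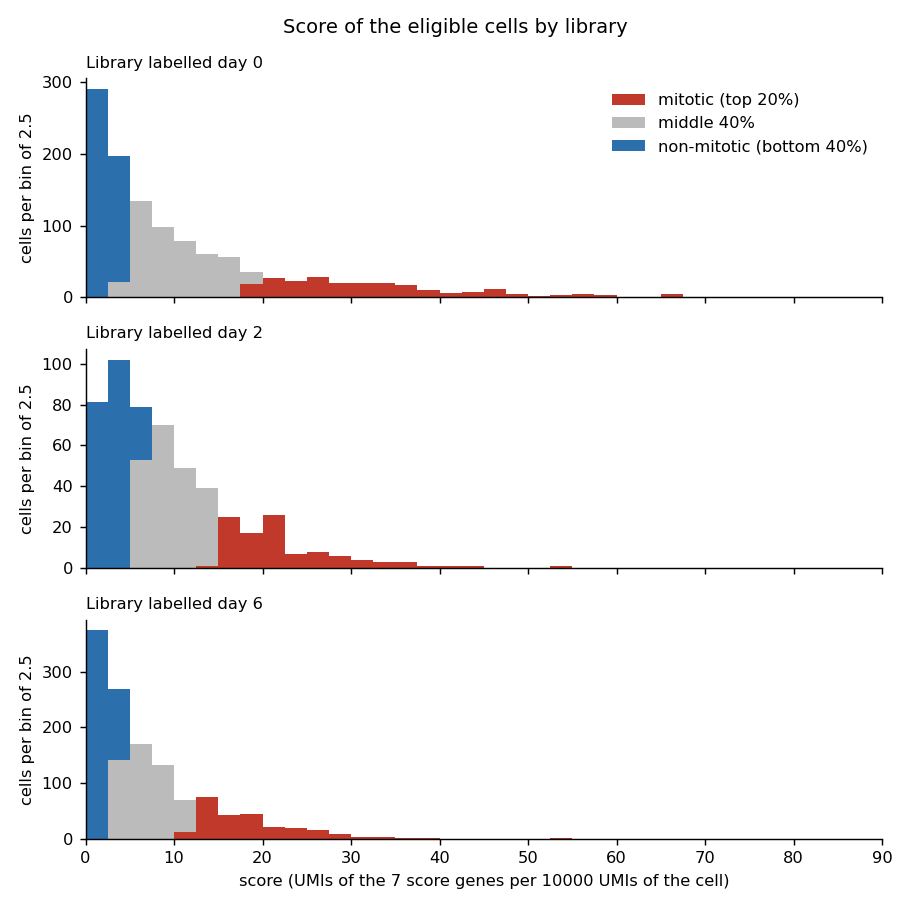
Number of eligible cells (y axis) by score (x axis, UMIs of the 7 score genes per 10000 UMIs) in each library, stacked and coloured as mitotic, middle and non-mitotic. The scores run on without a gap at either limit, and the limits differ between libraries, with the lowest mitotic scores at 18.7, 14.9 and 12.1.

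The 7 score genes chose the cells, so their own ratios are given as description. PLK1, the kinase that drives centrosome maturation and mitotic entry, had 167, 231 and 154 CPM in mitotic cells of the 3 libraries, in the order day 0, day 2, day 6, against 4.99, 25.4 and 12.8 CPM in non-mitotic cells. TOP2A, the topoisomerase that untangles sister chromatids, had 1073, 670 and 568 CPM against 48.8, 72.3 and 36.6 CPM. Its ratios were 22.0, 9.26 and 15.5. With cells scored by the other 6 genes they were 10.8, 4.73 and 6.59. By the same check PLK1 gave 19.3, 4.98 and 7.48 in place of 33.5, 9.08 and 12.1, and CCNB1 13.5, 3.46 and 4.59 in place of 19.5, 5.97 and 7.93. MKI67, a protein that coats mitotic chromosomes, gave 10.7, 3.84 and 8.0, and HMMR, a spindle protein, 5.33, 2.84 and 3.63. Each of the 7 genes thus stayed past 2-fold in every library when it was taken out of its own score. The share of cells with a TOP2A UMI, after every cell was thinned to 3000 UMIs, was 93.1%, 83.7% and 78.5% of mitotic cells against 13.3%, 21.5% and 11.0% of non-mitotic cells; without thinning it was 98.7%, 96.2% and 96.8% against 34.3%, 38.3% and 27.3%. MYH6, a heart gene that these cells should lack, had a UMI in at most 0.962% of mitotic and 1.07% of non-mitotic cells without thinning.

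Among 5623 genes tested (at least 20 CPM over all eligible cells of each library, score genes left out), 120 were at least 2-fold higher in mitotic cells of the library labelled day 0, which is 2.13% of those tested. The libraries labelled day 2 and day 6 gave 113 (2.01%) and 85 (1.51%). Lower genes were fewer, with a ratio of at most 0.5 for 16 (0.285%), 24 (0.427%) and 5 (0.0889%). In the library labelled day 2 the split of 113 higher and 24 lower genes became 93 and 37 with TMM factors, 116 and 48 with CPM averaged over cells, and 92 and 66 with 0 to 25% mitochondrial UMIs. With no filter on low levels lower genes were the more numerous in every library, with 647 higher and 950 lower, 1044 and 1071, and 530 and 827. All 3 libraries shared 66 higher genes (1.17%) and 0 lower genes (0%). The interval of the ratio lay above 1 in every library for all 66 and above 2 for 39. At the limit stood FAM64A, BIRC5 and RTKN2, whose smallest ratios were 2.03, 2.05 and 2.05, and just outside it ARHGAP11B, MAD2L1 and SPAG5, with 2.00, 1.99 and 1.96. The middle cells lay between mitotic and non-mitotic cells for each of the 66 genes in every library. Their scores lie between those of the other groups by the rule, so this follows largely from the choice of cells and genes.

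AURKA, the kinase that matures centrosomes, had the highest smallest interval bound of all genes tested: 177, 167 and 124 CPM in mitotic cells, against 14.8, 28.8 and 21.3 CPM in non-mitotic cells. Its ratios were 12.0 (95% interval 9.26 to 15.7), 5.78 (4.18 to 8.10) and 5.83 (4.64 to 7.39). CDK1, the kinase that cyclin B activates, had 340, 285 and 158 CPM against 39.7, 64.4 and 27.0 CPM, with ratios of 8.57, 4.43 and 5.84. The other cyclins of this phase were higher too: CCNA2 by 7.55, 2.51 and 4.11 times, CCNB2 by 4.95, 2.17 and 3.40 times and CCNF by 9.01, 3.39 and 3.33 times. CDC25C, the phosphatase that switches CDK1 on, stood at 7.47, 2.68 and 3.38, and WEE1, the kinase that holds CDK1 off, at 2.34, 1.89 and 1.69. Of 12 measured cyclins and CDK1 regulators, 8, 6 and 7 were past 2-fold and 6 were so in all 3 libraries. ENSA and ARPP19, small inhibitors of the phosphatase that opposes CDK1, were within 0.89 and 1.31 everywhere. Of 7 measured mitotic kinases 6 were past 2-fold in each library, and the exception, TOPBP1, which is a replication checkpoint scaffold rather than a kinase, had ratios of 1.06, 0.71 and 0.98.

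In the spindle checkpoint, BUB1B had ratios of 6.22, 2.83 and 4.37, BUB1 7.91, 2.76 and 3.20 and BUB3 3.70, 2.41 and 2.44. These 3 proteins sit at unattached kinetochores and feed the signal that blocks anaphase. MAD2L1, the protein that takes hold of CDC20, missed the limit in the library labelled day 2 alone, with 2.53, 1.99 and 2.59. The other 5 measured members, among them ZWILCH and KNTC1 of the complex that recruits MAD1 and MAD2, lay between 0.63 and 1.52, so 4, 3 and 4 of 9 were past 2-fold. The anaphase promoting complex split in the same way. Its activator CDC20 had 126, 200 and 137 CPM in mitotic cells, against 16.5, 59.9 and 23.2 CPM in non-mitotic cells. UBE2S, which extends its ubiquitin chains, had ratios of 3.05, 2.51 and 3.40, and PTTG1, the securin that it destroys, 4.17, 2.16 and 2.63. Of its core subunits CDC27 stood at 2.24, 2.83 and 1.79, while ANAPC1, ANAPC5, ANAPC7, ANAPC10, ANAPC11, ANAPC13, ANAPC16 and CDC16 lay between 0.81 and 1.81. FBXO5, an inhibitor of the complex, had 2.94, 1.84 and 1.48.

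At the centromere the ratios were among the largest outside the score. CENPA, the histone that marks centromeres, had 148, 84.9 and 63.3 CPM in mitotic cells and 8.03, 19.2 and 7.66 CPM in non-mitotic cells. Its ratio of 18.5 (13.1 to 26.7) in the library labelled day 0 was above that of 4.42 (2.92 to 6.82) in the library labelled day 2 and 8.26 (5.72 to 12.2) in the one labelled day 6, and its interval overlapped neither of theirs. HJURP, the chaperone that deposits CENPA, stood at 8.28, 4.17 and 3.77. The outer kinetochore genes NDC80 (9.86, 3.34 and 5.47), SPC25 (4.18, 2.74 and 4.16), SKA3 (3.38, 2.79 and 3.35) and CASC5 (5.11, 2.25 and 3.08), which bind microtubules or anchor those that do, were shared as well. So was SGO2, a guardian of centromere cohesion, with 9.85, 3.93 and 4.31. In all, 12, 9 and 12 of 25 measured kinetochore and centromere genes were past 2-fold and 8 were so in all 3 libraries. Proteins that sit at centromeres throughout the cycle varied. CENPC had 2.18, 2.30 and 1.67, CENPN 1.68, 1.93 and 2.47, CENPK 1.53, 1.41 and 1.45, and CENPH 1.12, 0.83 and 1.28, while the MIS12 complex members MIS12, NSL1 and DSN1 lay between 0.63 and 1.25.

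Motors and spindle proteins made the largest block. Of 14 measured mitotic kinesins 12, 9 and 10 were past 2-fold, and 9 were so in every library. KIF20A had 119, 107 and 92.1 CPM in mitotic cells against 10.4, 29.9 and 15.1 CPM in non-mitotic cells, and KIF23 107, 86.0 and 81.4 CPM against 10.2, 21.5 and 12.8 CPM. Both motors work at the central spindle. CENPE, which carries chromosomes to the metaphase plate, had 306, 118 and 105 CPM against 31.7, 24.9 and 19.6 CPM, and KIF11, which pushes the poles apart, ratios of 5.64, 3.39 and 3.15. KIF5B, a cargo motor on the list, stood at 1.69, 1.54 and 1.30, and KIF2A at 1.30, 1.06 and 1.09. Among spindle assembly factors 14, 12 and 13 of 18 were past 2-fold, 11 of them in all libraries. GTSE1, a microtubule tip protein, had ratios of 10.8, 7.23 and 5.33, PRC1, which bundles antiparallel microtubules, 7.99, 4.71 and 5.25, and TPX2, the activator of AURKA, 6.94, 3.90 and 6.26. HAUS1, HAUS6 and TUBG1, on the same list, lay between 1.01 and 1.43. Among alpha- and beta-tubulin genes on the tubulin list, TUBB6, TUBB, TUBB2A, TUBB2B and TUBA1A lay between 0.75 and 1.93 in every library, and STMN1, a microtubule destabiliser on the same list, had 1.41, 1.08 and 1.02. TUBB4B, a beta-tubulin, had 106, 135 and 74.4 CPM in mitotic cells against 15.8, 58.8 and 38.5 CPM in non-mitotic cells, a ratio of 6.70 (5.14 to 8.81), 2.30 (1.76 to 3.01) and 1.93 (1.56 to 2.39).

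**Figure D2:**
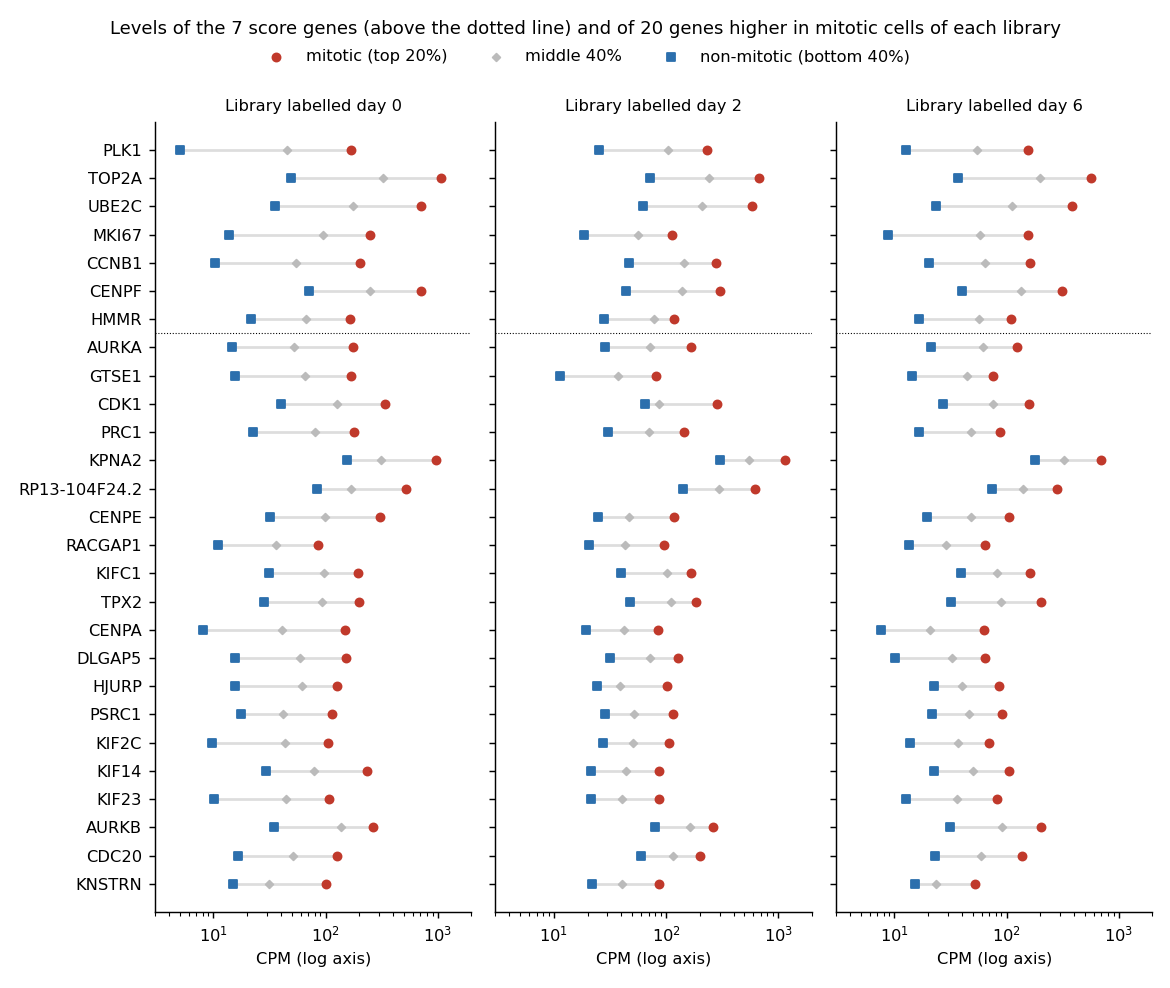
CPM (x axis, log scale) of the 7 score genes and the 20 genes with the highest smallest interval bound (y axis), in mitotic, middle and non-mitotic cells of each library. Middle cells lie between the other groups for all 27 genes. For the 7 score genes this follows largely from the rule, and for the other 20 largely from the choice of cells and genes. The groups stand farthest apart in the library labelled day 0, where CENPA had 148 CPM in mitotic and 8.03 CPM in non-mitotic cells.

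All 3 measured members of the chromosomal passenger complex were shared: AURKB with 7.54, 3.29 and 6.48, CDCA8 with 7.79, 2.73 and 5.14 and BIRC5 with 4.08, 2.05 and 2.94. This complex corrects wrong attachments and later marks the division plane. For cytokinesis 7 of 11 measured genes were past 2-fold in each library. RACGAP1, which with KIF23 forms the centralspindlin complex, had 85.8, 95.8 and 63.7 CPM in mitotic cells against 11.1, 20.3 and 13.4 CPM in non-mitotic cells. ECT2, the exchange factor that starts the contractile ring, stood at 3.99, 3.26 and 2.96, ANLN, a ring scaffold, at 4.79, 3.10 and 4.09 and CIT, the citron kinase, at 3.16, 2.89 and 2.78. The septins SEPT2, SEPT7 and SEPT11 and the ESCRT gene CHMP4B lay between 0.87 and 1.31.

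The condensin I subunits NCAPD2 (4.06, 2.89 and 2.97) and NCAPH (3.49, 2.66 and 3.68) were shared, while SMC2, common to both condensins, had 1.66, 1.60 and 1.97. Cohesin and its loaders, SMC1A, SMC3, RAD21, STAG1, STAG2 and NIPBL, lay between 0.93 and 1.81. CDCA5, the sororin that protects cohesion, had 2.71, 1.21 and 2.5. Of 16 measured condensin and cohesin genes 4, 2 and 3 were past 2-fold. Among 23 chromatin proteins of dividing cells H2AFX, the histone variant that marks DNA breaks, had 4.51, 3.75 and 3.37. HMGB2, a DNA-bending protein, had 1470, 777 and 867 CPM in mitotic cells against 312, 327 and 249 CPM in non-mitotic cells. The related HMGB1 stood at 1.37, 1.30 and 1.57, and LMNA, which encodes the lamins A and C, at 0.85, 0.76 and 0.78. Of 19 transcription factors and their partners on the cell cycle list, 12 were below 20 CPM and 6 were measured, with 0 of these 6 past 2-fold in any library. MYBL2, which works with MuvB, had 1.49, 1.09 and 1.60.

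Of the 66 shared genes 56 stood in at least 1 of the 12 lists of mitosis, and 10 in none. The G2/M list among them held 44 of the 5623 genes tested and 32 of the 66. The share of all genes tested in the 12 lists together was not counted. These lists were chosen with earlier results of these data known. KPNA2, an importin that keeps TPX2 inactive until mitosis, had 972, 1144 and 702 CPM in mitotic cells against 154, 303 and 178 CPM in non-mitotic cells. IER5, an immediate early gene, had ratios of 2.38, 3.75 and 2.07, RHNO1, a partner of the checkpoint clamp that responds to DNA damage, 2.23, 2.24 and 2.08 and FAM122B 2.43, 2.98 and 2.06. PRR11 stood at 7.50, 3.47 and 3.42, DEPDC1B at 4.26, 2.42 and 2.49 and RTKN2 at 3.25, 2.05 and 2.71. ARHGAP11A had 3.56, 2.68 and 3.48 and its near copy ARHGAP11B 4.20, 2.00 and 3.69; how reads were divided between them is not given in the sources used here. RP13-104F24.2 (6.15, 4.43 and 3.81) and CTD-2510F5.6 (6.32, 2.60 and 4.24) are given by the files' names alone. These genes outside the lists were named after their values were seen, KPNA2 and RP13-104F24.2 apart.

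The 66 shared genes differed in size between libraries. Their median ratios were 6.32, 3.17 and 3.88 in the order day 0, day 2, day 6. For 61 of them the ratio was highest in the library labelled day 0, and for 29 its interval lay above both others; for 50 it was lowest in that labelled day 2, and for 6 its interval lay below both others. Levels in non-mitotic cells moved with this, with a median over the 66 genes of 20.3, 28.8 and 21.3 CPM, beside 124, 96.4 and 83.2 CPM in mitotic cells. The score limits that chose the cells differed between libraries as well, the upper and the lower one, and their part was not tested. CDCA3, an adaptor that triggers destruction of WEE1, varied most, with ratios of 21.7 (13.7 to 36.2), 3.56 (2.38 to 5.40) and 6.35 (4.46 to 9.19).

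**Figure D3:**
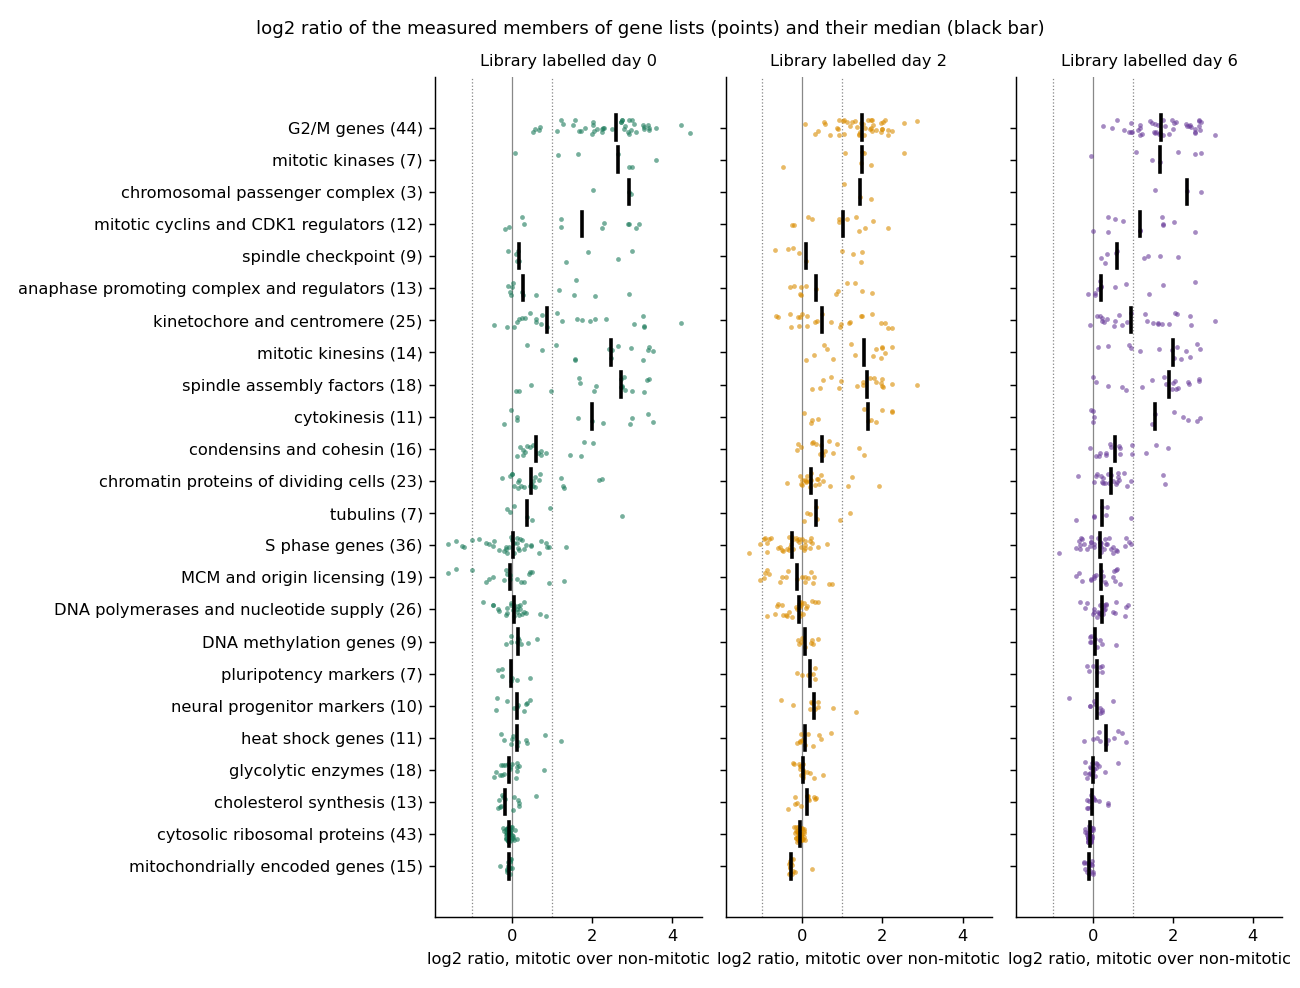
log2 ratio of mitotic over non-mitotic cells (x axis) for each measured member of 24 gene lists (y axis, number measured in brackets), with the list's median as a black bar and 2-fold limits dotted, 1 panel per library. Medians of the G2/M genes were 2.60, 1.49 and 1.72, while S phase genes, ribosomal proteins, glycolytic enzymes and pluripotency markers have medians between -0.25 and 0.20.

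Of 44 measured genes of a standard G2/M list, which overlaps the lists above and shares 32 genes with the 66, 40, 34 and 36 were past 2-fold, with median log2 ratios of 2.60, 1.49 and 1.72. Over all genes tested the median was 0.02, 0.07 and 0.05. In the S phase list 1, 0 and 0 of 36 genes were past 2-fold and 5, 2 and 0 at or below 0.5, with medians of 0.02, -0.25 and 0.19. Its members did not move as 1 group. RRM2, which makes deoxyribonucleotides, had 1.79, 1.31 and 1.74. MCM5, MCM6 and MCM4 lay at the other end.

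No gene was at or below 0.5 in all 3 libraries, so the 10 genes whose largest upper bound was lowest are described. MCM5, a subunit of the helicase that licenses origins, had 18.7, 58.8 and 111 CPM in mitotic cells, against 56.9, 123 and 141 CPM in non-mitotic cells. Its ratios were 0.33 (0.23 to 0.45), 0.48 (0.35 to 0.65) and 0.79 (0.69 to 0.91), so all 3 intervals lay below 1. MCM6 had 0.38, 0.53 and 0.75 and MCM4 0.64, 0.52 and 0.83. MCM2 had 0.68, 0.67 and 0.97, MCM3 0.72, 0.76 and 1.15 and MCM7 0.96, 0.78 and 1.26, so the last 2 were above 1 in the library labelled day 6. The ratio of the MCM5 ratios, library labelled day 0 over day 6, was 0.414 (0.293 to 0.586, Wald interval). CDC6, which loads the helicase, had 0.50, 0.56 and 1.03, and PCNA, the sliding clamp of replication, 0.72, 0.80 and 1.15. Middle cells had 49.8, 106 and 140 CPM of MCM5, between the other groups in each library. Of 19 measured licensing genes 3, 1 and 0 were at or below 0.5, and DBF4, the activator of the kinase CDC7, was the 1 past 2-fold, in the library labelled day 0, with 2.46, 1.58 and 1.51.

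Most of the rest were noncoding RNAs or genes given by the files' names. SNHG3, a host transcript of small nucleolar RNAs, had 53.5, 84.9 and 110 CPM in mitotic cells, against 150, 176 and 164 CPM in non-mitotic cells. With MCM5 it was 1 of 2 genes at or below 0.5 in exactly 2 libraries, with ratios of 0.36, 0.48 and 0.67. DANCR, another snoRNA host, had 0.62, 0.76 and 0.81. FIRRE, an X-linked nuclear RNA, had 0.51, 0.69 and 0.73, MIAT 0.64, 0.68 and 0.61, GABPB1-AS1 0.65, 0.50 and 0.54 and the coding gene MBD5, a methyl-binding domain protein, 0.68, 0.47 and 0.56. The counting strand is not given, and whether reads of GABPB1-AS1 and its sense partner GABPB1 were kept apart was not examined. CH507-528H12.1 and CH507-513H4.1, given by the files' names, had 0.55, 0.72 and 0.56, and 0.56, 0.58 and 0.64. MALAT1, the abundant RNA of nuclear speckles, went the other way, with 6193, 1615 and 900 CPM against 3397, 889 and 699 CPM. Its ratios were 1.82, 1.82 and 1.29, whereas the 4 measured nuclear retained RNAs had a median log2 ratio of -0.18, -0.35 and -0.22, so the list's summed level and its median differ in sign in the libraries labelled day 0 and day 2.

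**Figure D4:**
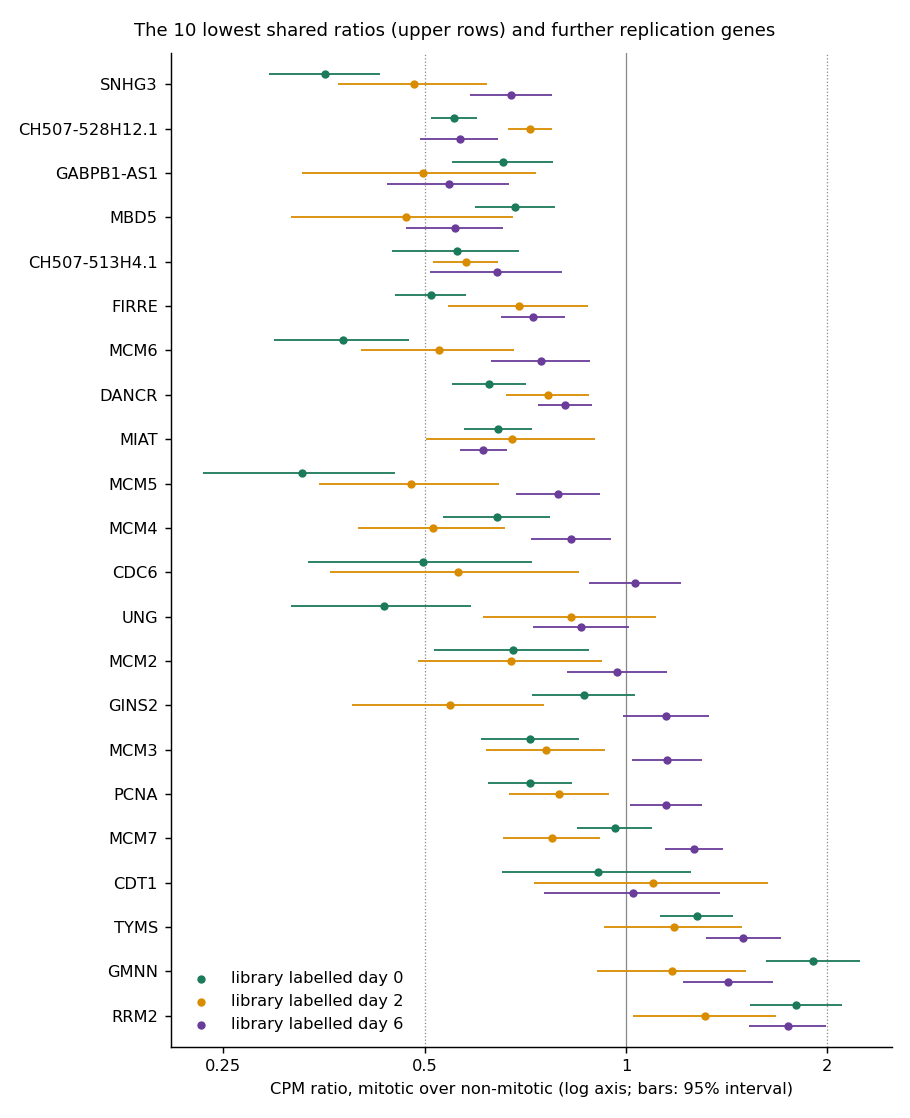
CPM ratio of mitotic over non-mitotic cells (x axis, log scale) with exact 95% intervals for counting error, in the 3 libraries, for the 10 genes with the lowest largest upper bound and 12 further replication genes. MCM5, MCM6 and SNHG3 lie below 1 in each library and farthest below it in that labelled day 0, at 0.33, 0.38 and 0.36.

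For 43 cytosolic ribosomal protein genes the median log2 ratio was -0.09, -0.06 and -0.06, and for 18 glycolytic enzymes -0.08, 0.02 and 0.00, with 0 past 2-fold either way in any library. The 15 mitochondrially encoded genes had -0.08, -0.29 and -0.09. They also set which cells entered, and their median share was 13.5%, 13.2% and 13.5% of UMIs in mitotic cells against 14.5%, 15.2% and 15% in non-mitotic cells. With totals that left out score and mitochondrially encoded genes 63 of the 66 shared genes stayed shared. Of 7 measured pluripotency markers 0 passed 2-fold either way in any library. LIN28A had 0.84, 0.99 and 0.95, SOX2 1.36, 1.15 and 1.18, and DNMT3B, a de novo DNA methyltransferase, 0.99, 1.20 and 1.08. Of 10 measured neural progenitor markers SOX3 alone passed 2-fold, in the library labelled day 2, with 1.30, 2.54 and 1.42. The summed level of that list was 2738, 1644 and 2870 CPM in mitotic cells against 2498, 1231 and 2615 CPM in non-mitotic cells, a ratio of 1.10 (1.06 to 1.13), 1.34 (1.25 to 1.43) and 1.10 (1.07 to 1.13). Neuron and Notch differentiation markers, of which 2 of 18 were measured, summed to 277, 211 and 304 CPM against 341, 205 and 433 CPM, a ratio of 0.81 (0.74 to 0.89), 1.03 (0.86 to 1.23) and 0.70 (0.64 to 0.76). Of the 2, HES6, a Notch pathway factor of newborn neurons, had 0.98, 1.02 and 0.74 and MAP2, a neuronal microtubule protein, 0.81, 0.87 and 0.98. Markers of other cell types that could lie in the culture were at low levels, the collagen genes COL1A1 and COL1A2 apart. Of 10 mesenchyme and neural crest symbols 2 were measured, and the summed level of all 10 was 72.9, 95.8 and 138 CPM in mitotic cells against 127, 101 and 269 CPM in non-mitotic cells. COL1A2, a collagen chain, made up most of this in the library labelled day 6, with 111 against 231 CPM, while COL3A1 was at 0 and LUM at 0.17 CPM over all eligible cells of that labelled day 0. In the library labelled day 6 a COL1A2 UMI was seen in 142 of 251 mitotic and 349 of 502 non-mitotic cells. The part of cells of other types in the lower ratios of COL1A1 and COL1A2 was not tested. Blood and endothelial symbols summed to at most 32.2 CPM and endoderm and mesoderm symbols to at most 6.63 CPM in any group.

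Genes past 2-fold in 1 library and in neither other one were counted next, a count that does not show a difference between libraries. In the library labelled day 0 there were 27 such higher genes (0.48% of those tested), and for 4 the interval lay above both others. SMC4, a condensin subunit, had 343, 94.7 and 64.5 CPM in mitotic cells against 104, 52.0 and 32.8 CPM in non-mitotic cells, and ratios of 3.29 (2.94 to 3.69), 1.82 (1.34 to 2.47) and 1.97 (1.57 to 2.48). HMGB3, an HMG-box protein, had 2.33, 1.34 and 1.42, CDCA4 2.42, 1.35 and 1.40 and ID2, an inhibitor of basic helix-loop-helix factors, 2.03, 1.40 and 1.14. All 4 were above 1 in every library. Lower there and not in the others were 14 genes (0.249%), with the interval apart for 4: CDCA7, UNG, SHANK2 and STXBP5L. CDCA7, which belongs to a chromatin remodelling complex, had 12.4, 87.1 and 52.6 CPM in mitotic cells against 29.3, 75.7 and 45.1 CPM, so its ratio was 0.42 beside 1.15 and 1.17. UNG, a uracil glycosylase of S phase, had 0.43, 0.83 and 0.86, and SHANK2, a synaptic scaffold gene, 0.41, 1.37 and 0.97. The metallothionein MT1E (0.36, 0.74 and 1.09) and the collagen gene COL1A1 (0.46, 0.86 and 0.68) were also among the 14, with intervals that overlapped another library's.

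In the library labelled day 2, which had the fewest cells and UMIs, 36 genes were higher and in neither other one (0.64%), with the interval apart for 11, and 22 lower (0.391%), with the interval apart for 2. DLK1, a membrane-bound Notch ligand relative of imprinted chromosome 14 (chr14:100726892-100738224 in GRCh38.p14), led the higher ones. It had 569 CPM in mitotic against 206 CPM in non-mitotic cells there, a ratio of 2.76 (2.41 to 3.16), while its ratio was 0.86 (0.83 to 0.88) and 0.87 (0.81 to 0.93) in the libraries labelled day 0 and day 6. These UMIs came from few cells. In that library 23 of 104 mitotic cells held all 523, 5 of them holding 418, and 20 of 209 non-mitotic cells held 365. Cells that clustered with another library held 382 of the 523 and 352 of the 365 UMIs. All cells of this kind were then left out and both groups picked anew by score, so the groups were no longer the same cells. The levels were then 161 against 26.1 CPM and the ratio 6.16 (4.38 to 8.83). The ratio was 0.86 and 0.79 in the libraries labelled day 0 and day 6. The interval covers counting error only and takes no account of UMIs held by few cells. SMOC1, a secreted calcium-binding protein, had 2.43 (1.69 to 3.48) beside 0.80 and 0.80. Without cells that clustered with another library, and with groups picked anew, it had 2.90 (1.56 to 5.49), on 28 and 19 UMIs. The remaining named genes rested on fewer UMIs. MAP7D1, which binds microtubules, had 57 UMIs in mitotic and 41 in non-mitotic cells, a ratio of 2.68 (1.76 to 4.10) beside 1.01 and 1.26. CPNE3, a copine, had 2.31 (1.44 to 3.73) beside 0.84 and 0.88, and STXBP4 2.32 (1.49 to 3.65) beside 0.85 and 0.99. CDK6, a G1 kinase that was singled out after its values were seen, had 80.6 against 39.0 CPM, and ratios of 0.73, 2.07 and 1.13. Among the lower genes CCDC59 had 0.49 (0.28 to 0.82) beside 1.27 and 1.15.

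The library labelled day 6 held 3 genes higher there and in neither other one (0.0534%) and 5 lower (0.0889%), and for 0 of these 8 did the interval stand apart. VRK1, a kinase that phosphorylates histones, had 2.18 (1.69 to 2.81) beside 1.46 and 1.19, CENPN, which reads CENPA, 2.47 beside 1.68 and 1.93, and POC1A, a centriole protein, 2.21 beside 1.99 and 1.68. All 3 were thus above 1 in every library. The lower 5 were COL1A2, ALCAM, RGS6, LINC01021 and AC012501.2. COL1A2 had 0.48 (0.42 to 0.55) there and 0.53 (0.40 to 0.69) and 0.61 (0.36 to 1.01) in the libraries labelled day 0 and day 2; without cells that clustered with another library it stood at 0.51, past the limit no more. ALCAM, an adhesion molecule, had 29.2 CPM in mitotic against 59.4 CPM in non-mitotic cells, a ratio of 0.49 (0.37 to 0.64), beside 0.98 and 0.77.

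**Figure D5:**
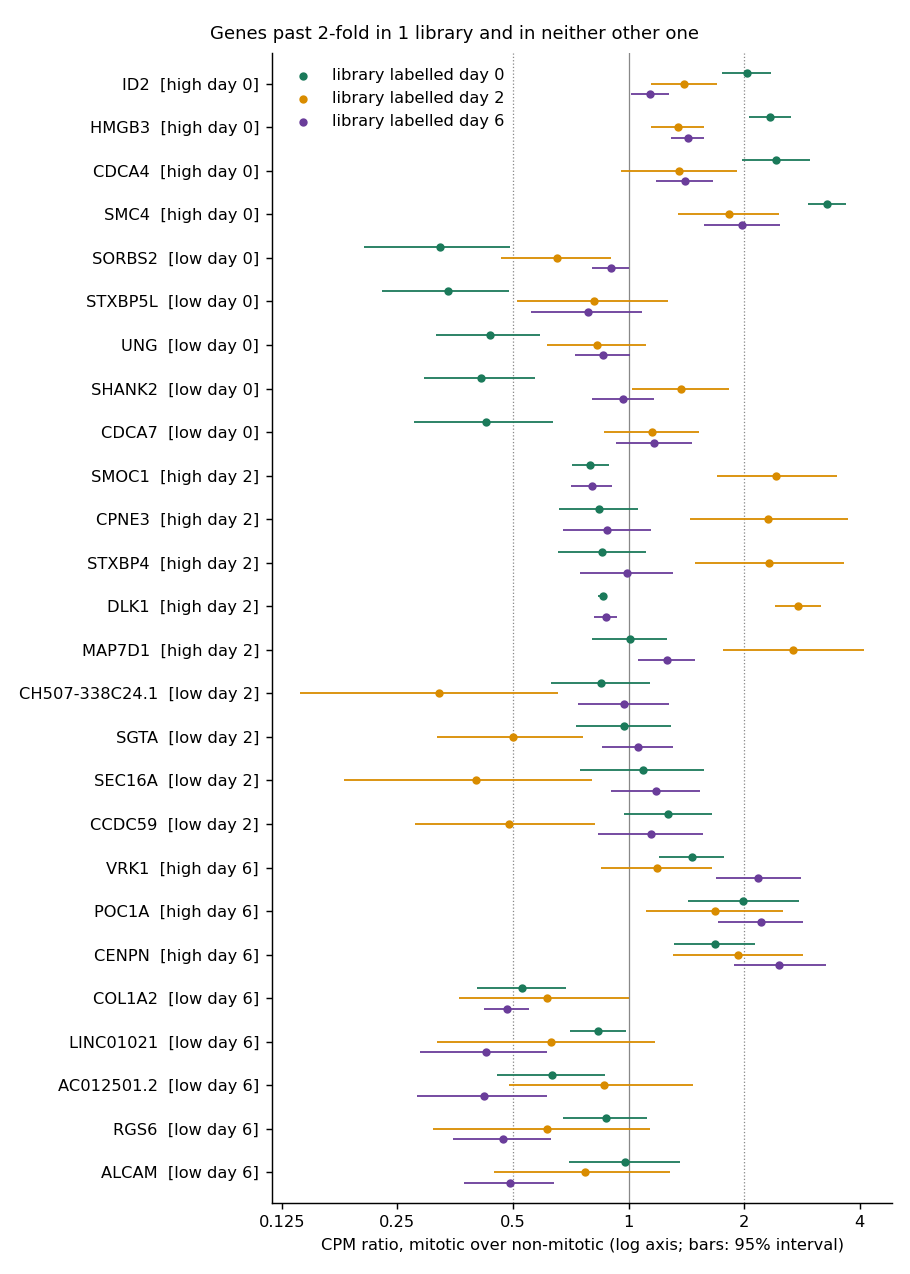
CPM ratio of mitotic over non-mitotic cells (x axis, log scale) with exact 95% intervals for counting error, for 26 of the genes past 2-fold in 1 library and in neither other one; the brackets give that library and direction. DLK1 and SMOC1 are above 2 in the library labelled day 2 and below 1 in the others, whereas VRK1, CENPN and POC1A are above 1 in all 3.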

How the data were processed

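The members and gene lists were chosen with earlier results of these data known. The authors deposited raw UMI counts per gene and cell barcode, per the file headers, with 11291, 12323 and 16073 barcodes and 32831973, 32005289 and 51492505 UMIs for day 0, day 2 and day 6. Reads were aligned with STAR to hg38, per the submitters' processing notes; the version, the collapsing of UMIs and the use of strand are not given. The rule of the opening was applied to these counts, with ties broken by barcode order.

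UMIs were summed over cells of a group and given as CPM. Ratios carry exact conditional binomial 95% intervals, levels exact Poisson and shares exact Clopper-Pearson intervals, all for counting error only; ratios of ratios have Wald intervals. Genes needed 20 CPM over all eligible cells of each library, and 2-fold or 0.5 counted as called. No p-value was computed, since each day is 1 library. Doublets were not called, and the limit of 20000 UMIs was the only guard. Libraries were clustered together (cells of at least 1000 UMIs and 500 genes, 2000 variable genes, 30 components, 15 neighbours, Leiden resolution 0.5) to find cells that lie mostly with another library. Where cells were left out, both groups were picked anew by score among the remaining cells.

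By rule the text names the 20 shared higher and 10 lower genes with the best bound over libraries and 5 genes per library and direction past 2-fold in 1 library; other genes were named after their values were seen, and results of some genes are not reported here. Of 561 symbols in 34 lists 4 were not found and 8 were renamed. Promoters, chromosomes and positions came from RefSeq GRCh38.p14. The calculation was tested on simulated data. Alternatives changed scaling, filters, limits, score and cells. Software was Python 3.11.15, numpy 2.4.6, scipy 1.17.1, pandas 2.3.3, scanpy 1.11.5, igraph 0.11.9, matplotlib 3.10.9, R 4.3.3 and edgeR 4.0.16, the last for TMM factors.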

Additional observations from a re-analysis of the deposited data

Results flagged for a closer look

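For the 5 genes below the ratio of mitotic over non-mitotic cells lay above 1 in 1 library and below 1 in another. Both counting intervals were clear of 1. These 5 are not a full count over the genes tested. TMEM45A met the same limits, with 0.437 (0.284 to 0.654) for day 0 and 1.93 (1.14 to 3.25) for day 2. The difference between libraries was not tested, since each is 1 sample. DLK1 was at 2.76 in the library labelled day 2, against 0.855 and 0.871 in those labelled day 0 and day 6. Cells that clustered with another library held 382 of its 523 mitotic and 352 of its 365 non-mitotic UMIs for day 2. SMOC1 was at 2.43 in the library labelled day 2, against 0.796 and 0.802. Such cells held 45 of its 73 mitotic and 40 of its 58 non-mitotic UMIs for day 2. CCND2, a G1 cyclin, was at 1.41 in the library labelled day 2, against 0.76 and 0.64. SHANK2 was at 1.37 in the library labelled day 2 and 0.412 in that labelled day 0. HSPD1, a mitochondrial chaperonin, was at 1.08 in the library labelled day 6 and 0.867 in that labelled day 0.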

How the results depend on the processing

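No paired analysis was possible because each day is 1 library and the result comes from no test. The 66 shared higher genes numbered 53 to 97 under the other alternatives, 24 at 50 CPM and 100 with no filter on low levels. Shared lower genes numbered 4 at a 1.5-fold limit, 32 with no filter and 2 without the library labelled day 6, against 0. Genes past the limit in 1 library alone depended most on the settings. At a 1.5-fold limit they numbered 100, 264 and 82 higher and 78, 141 and 45 lower (libraries labelled day 0, day 2 and day 6), at 10 CPM 47, 129 and 7 higher and 47, 89 and 15 lower, at 50 CPM 9, 1 and 0 higher and 1, 2 and 0 lower, and with no filter 373, 795 and 291 higher and 648, 783 and 551 lower, against 27, 36 and 3 higher and 14, 22 and 5 lower. With score and ratios from separate random parts of the UMIs there were 41, 101 and 11 higher, and 79 lower for day 2. With the top 10% as mitotic there were 75 and 7 higher for day 2 and day 6 and 29, 78 and 10 lower. With 0 to 25% mitochondrial UMIs there were 13 and 7 higher and 55 and 10 lower for day 2 and day 6. For day 2, TMM factors gave 22 higher and 34 lower and median-of-ratios factors 23 higher. From 5000 UMIs 39 and 9 were lower for day 2 and day 6, and with CPM averaged over cells 46 and 8. For day 6, 2 were lower with a thinned score and 8 without shared barcodes. The genes themselves changed as well. Of the 36 higher genes for day 2, 6 stayed with 0 to 25% mitochondrial UMIs, 15 with separate parts and 12 with a thinned score. Of the 22 lower ones 5, 9 and 10 stayed. More stayed with TMM factors (22 and 22) and without cells that clustered with another library (28 and 15). Direction reversed in the library labelled day 2 for KIDINS220 (1.07, separate parts), CADM1 (0.894, 0 to 25% mitochondrial UMIs) and SGTA (1.07, the same range). The cause was not tested. Medians of the G2/M list stayed within 1.71 and 2.10 (1.94, mean over libraries) and of the S phase list within -0.11 and 0.05 (-0.01). Leaving out shared barcodes and changing the totals were chosen after seeing the data. Precision is limited by depth, with 104 mitotic cells in the library labelled day 2.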
